A study of Mus musculus with 14 samples.

Results

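MHC class II molecules display peptides from the endosomes of antigen-presenting cells to CD4 T cells. The genes described here are the 10 named for that pathway, found by symbol among the 55416 genes of the deposited tables, and all 10 were present. They are the classical chains H2-Aa, H2-Ab1 and H2-Eb1, the invariant chain Cd74, the peptide-loading chains H2-DMa, H2-DMb1 and H2-DMb2, the loading inhibitor chains H2-Oa and H2-Ob, and the coactivator Ciita. They were followed through RNA sequencing of lung and of the gastrocnemius of the calf, taken from males of the strain C57BL/6 (C57BL/6NCrlOri) at 6 to 8 weeks. There were 5 libraries of tumour-bearing lung (TB), 3 of control lung (CON), 3 of muscle from tumour-bearing mice and 3 of control muscle. Below, tumour-bearing muscle is short for muscle from tumour-bearing mice and does not mean that the muscle holds tumour. Tumour-bearing mice had 5000000 cells of the line KrasIKKaL delivered through the trachea. The sources used here do not give what the control mice received or how the lung was sampled. The labels do not say that libraries of a group are from separate mice, so the p-values cover the spread among libraries and no more, and that spread may be technical.

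The invariant chain holds newly made class II chains until they reach the endosome, where proteases cut it down to a short peptide. H2-M, made of an H2-DMa and an H2-DMb chain, then swaps this peptide for others, and H2-O restrains H2-M, chiefly in B cells. Ciita does not bind DNA itself but is recruited to class II promoters by factors that sit on a conserved pair of elements, the X box and the Y box. In mouse lung, alveolar type 2 cells make class II molecules besides B cells, dendritic cells and macrophages, while resting muscle fibres make little.

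Stretches of 6 promoters are shown because they hold elements that several of these genes have in common. RefSeq's promoter table for GRCm38.p6 holds 7 of the 10 genes, all 7 on chromosome 17. Capitals mark a Y box core, TGATTGG, and, where it lies 20 to 30 bases before that core, a short stretch of the X box, GCAAC. All stretches are 5′ to 3′ on the strand of the gene.
H2-Aa: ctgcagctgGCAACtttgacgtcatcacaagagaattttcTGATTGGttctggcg
H2-Eb1: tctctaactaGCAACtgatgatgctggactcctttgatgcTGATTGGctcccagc
H2-Ob: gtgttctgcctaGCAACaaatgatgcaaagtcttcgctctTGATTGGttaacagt
H2-Oa: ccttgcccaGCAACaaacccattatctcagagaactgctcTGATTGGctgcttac
H2-DMb1: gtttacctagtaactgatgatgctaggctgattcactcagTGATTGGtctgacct
H2-DMb2: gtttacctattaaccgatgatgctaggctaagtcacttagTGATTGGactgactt

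These stretches lie at chr17:34287859-34287913 (minus strand, H2-Aa) and, on the plus strand, at chr17:34305766-34305820 (H2-Eb1), chr17:34238806-34238860 (H2-Ob), chr17:34092294-34092348 (H2-Oa), chr17:34153088-34153142 (H2-DMb1) and chr17:34145117-34145171 (H2-DMb2). TGATTGG began at position -50 in H2-Aa, -61 in H2-Eb1, -59 in H2-Ob, -45 in H2-Oa, -63 in H2-DMb1 and -92 in H2-DMb2, counted from the annotated start. Among the 250 bases before each of 32851 promoters, TGATTGG was found on either strand in 7.23%. GCAAC at that distance before it was found in 29 promoters (0.0883%), 4 of which belong to H2-Aa, H2-Eb1, H2-Ob and H2-Oa. H2-DMb1 and H2-DMb2 held no GCAAC at that distance. Neither of the 2 annotated H2-DMa promoters held TGATTGG. The letters were chosen after these sequences had been read, and a match describes a sequence, not a bound site.

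Expression levels are given in TPM, the length- and depth-normalised transcript abundance that the authors deposited. Counts were tested with edgeR, and changes are given as log2 of tumour-bearing over control. In lung, TPM and fitted folds sit on different scales. On log2(TPM + 1) the median of all genes tested was -0.23, against 0.07 for the fitted fold changes, so a ratio of mean TPM is usually lower than the fitted fold. Libraries held 47947363 to 61087315 counts in lung and 32476194 to 44169410 in muscle. Sftpc, the surfactant gene of alveolar type 2 cells, was listed at 0 in all 6 muscle libraries, and Acta1, skeletal muscle actin, reached 13958 TPM in tumour-bearing and 22864 TPM in control muscle, so tissue labels and markers matched. In tumour-bearing lung, Sftpc itself was at 4.39 to 872.57 TPM, against 31026 to 37048 TPM in control lung.

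**Figure D1:**
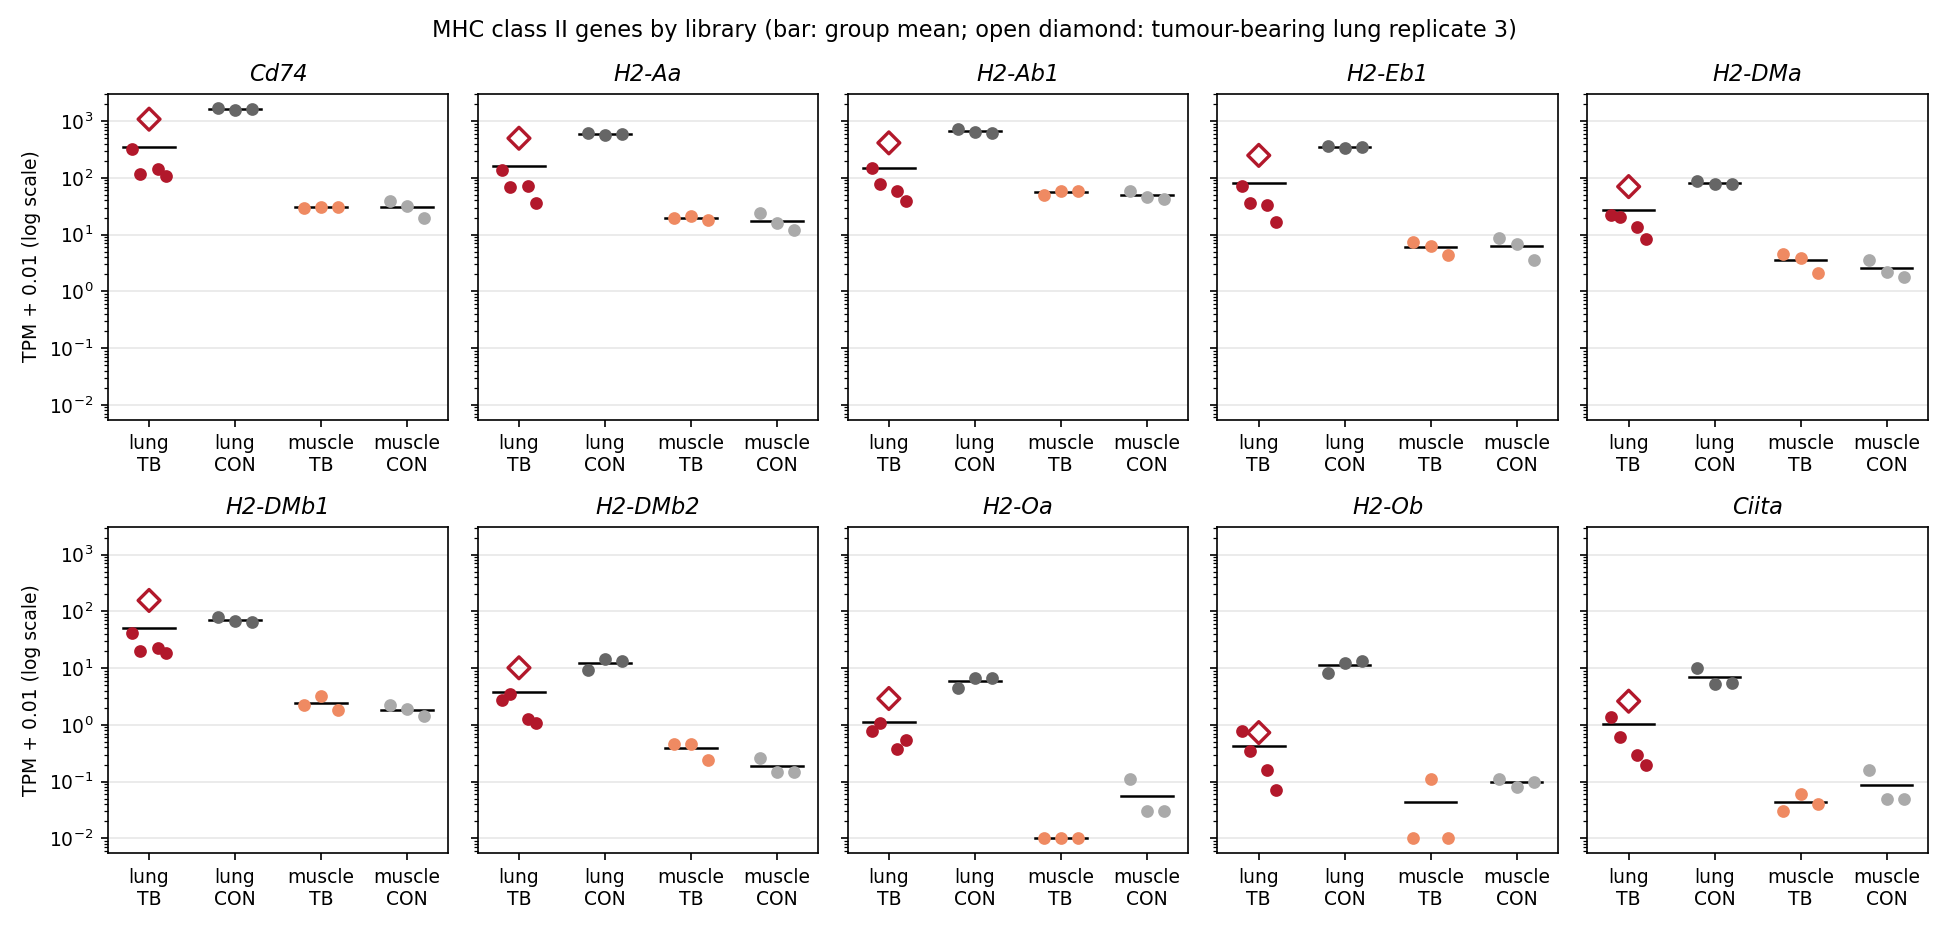
TPM of the 10 MHC class II genes in each library, on a log axis after adding 0.01, so values listed at 0 sit at the bottom. Points are libraries, bars are group means, and the open diamond is tumour-bearing lung replicate 3, which lies above the other tumour-bearing lung libraries for every gene but H2-Ob.

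In tumour-bearing lung, class II transcripts were lower in most libraries, with a wide spread between them. Of the 10 genes, 5 fell (Cd74, H2-Ab1, H2-Oa, H2-Ob and Ciita), none rose and the other 5 did not pass an adjusted p of 0.05 (edgeR quasi-likelihood test, Benjamini-Hochberg over 19300 genes, n = 5 and 3). Over all genes tested, 29.3% were lower and 30.4% higher, so 5 of 10 lower stands against a background in which most genes differed (59.7%). DESeq2 gave a p-value for 5 of the 10 genes, of which 3 fell (H2-Oa, H2-Ob and Ciita), and none for Cd74, H2-Aa, H2-Ab1, H2-Eb1 and H2-DMb1. In limma-voom 9 fell, all but H2-DMb1, and no gene rose in either tool. Over all genes with an adjusted p, 6574 of 25279 were lower in DESeq2 and 6154 of 19300 in limma-voom. At an unadjusted p below 0.05, 6 were lower and 0 higher in edgeR. The median log2 change of the 10 genes was -1.73, beside 0.07 for all genes tested. In 8 of the 10 genes all 5 tumour-bearing libraries lay below all 3 controls in TPM, and this was so for 41.8% of all genes tested, while 19.7% lay wholly above the controls. In bulk RNA, fewer cells of a type and less RNA per cell cannot be told apart.

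The number of genes that passed changed with every library left out, and rose only without tumour-bearing replicate 3. That library was singled out after its values were seen, though leaving out each library in turn was planned. Without it all 10 genes fell, where 29.1% of all genes tested were lower, and the median log2 change of the 10 was -2.63. Without control 1, 2 or 3 the number that fell was 2 in each case, without tumour-bearing 1, 2 or 4 it was 3, and without tumour-bearing 5 it was 4. No gene rose when any library was left out.

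The invariant chain and the classical chains were the most abundant of the 10. Cd74, which guards the peptide groove until the endosome, had 324, 118, 1080, 141 and 107 TPM in tumour-bearing lung 1 to 5, against 1678, 1564 and 1604 TPM in control lung. Replicate 3 came closest to the controls and the other 4 libraries lay at 6.63% to 20.1% of the control mean. The log2 change was -1.83 (SE 0.69, 95% interval -3.40 to -0.26, edgeR adjusted p = 0.0461), and -2.79 (SE 0.38, edgeR adjusted p = 0.000475) without replicate 3. The call was lost when any 1 of the other 7 lung libraries was left out.

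H2-Ab1, the beta chain of the I-A molecule, had 149, 78.0, 413, 58.6 and 38.9 TPM in tumour-bearing lung, against 728, 655 and 618 TPM in control lung. Its log2 change was -1.93 (SE 0.62, 95% interval -3.33 to -0.53, edgeR adjusted p = 0.0236). H2-Aa, the alpha chain of I-A, had 139, 67.8, 498, 70.6 and 35.3 TPM in tumour-bearing lung, against 621, 570 and 584 TPM in control lung. The groups did not overlap for either chain, and for both replicate 3 was again nearest to the controls. H2-Aa did not pass (log2 change -1.54, 95% interval -3.18 to 0.10, edgeR adjusted p = 0.0942). H2-Eb1, the beta chain of the I-E molecule, had 71.7, 35.4, 249, 32.9 and 16.6 TPM in tumour-bearing lung, against 361, 336 and 349 TPM in control lung, and did not pass either (log2 change -1.63, 95% interval -3.23 to -0.02, edgeR adjusted p = 0.0751). Without replicate 3, H2-Ab1, H2-Aa and H2-Eb1 had log2 changes of -2.73, -2.61 and -2.59, all past the threshold. The call of H2-Ab1 was lost without any 1 control and without tumour-bearing 1, 2 or 4.

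The partner of H2-Eb1, H2-Ea, is a pseudogene in RefSeq's C57BL/6J reference, and this strain is known for making no I-E molecule. Its row held at most 2 counts in any of the 14 libraries. H2-Eb2, a further beta chain gene, had 0.10, 0.03, 2.04, 0.01 and 0.04 TPM in tumour-bearing lung, against 0.54, 1.00 and 0.80 TPM in control lung. Only replicate 3 lay above the controls, and H2-Eb2 did not pass (log2 change -0.45, edgeR adjusted p = 0.794). Without replicate 3 it fell by 3.58 on the log2 scale. H2-Ea was not tested.

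The proportions of the chains overlapped between the lung groups. The ratio of H2-Aa to H2-Ab1 in TPM was 0.868 to 1.21 in tumour-bearing lung and 0.852 to 0.945 in control lung. That of H2-Eb1 to H2-Ab1 was 0.426 to 0.602 in tumour-bearing lung and 0.496 to 0.564 in control lung. Cd74 over the 3 chains summed was 0.651 to 1.18 in tumour-bearing lung and 0.982 to 1.03 in control lung, which overlapped as well.

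**Figure D2:**
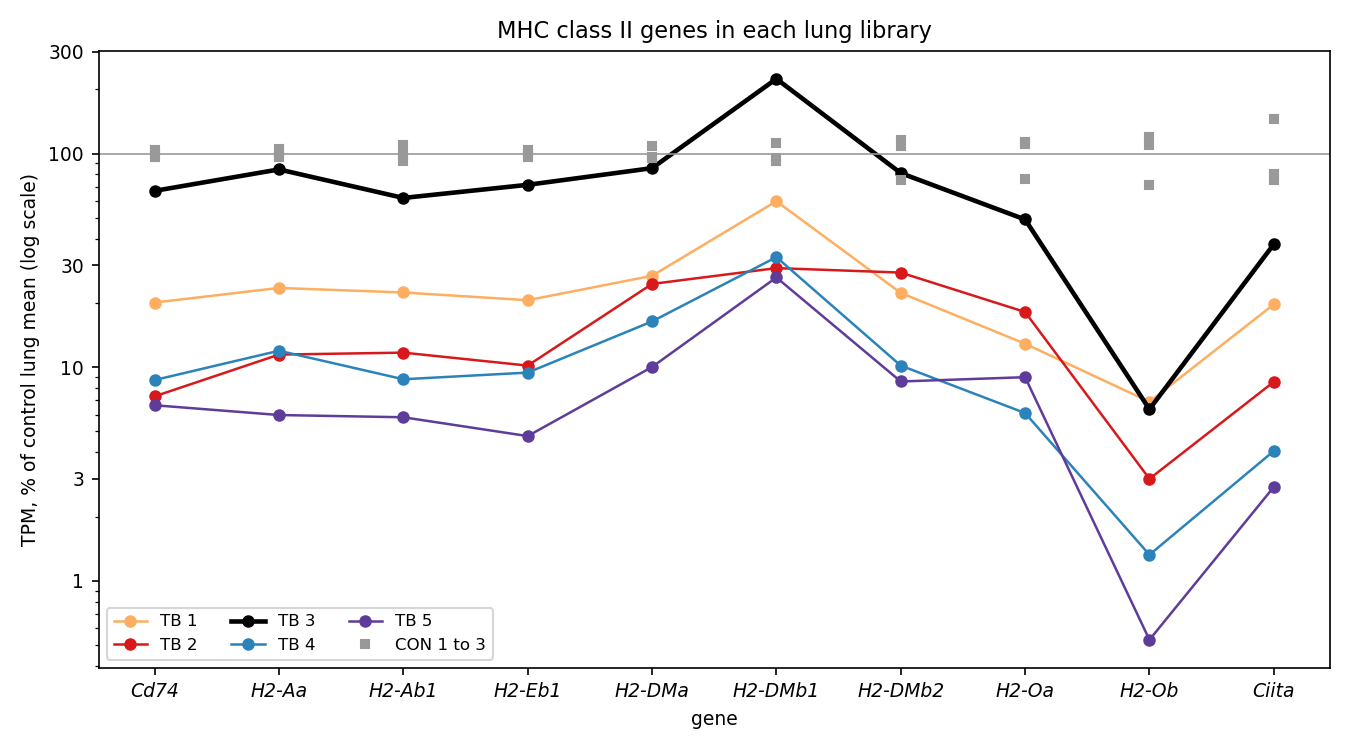
TPM of each gene in each lung library as a percentage of the control lung mean, on a log axis. Lines join the genes of 1 tumour-bearing library and grey squares are the 3 controls. In replicate 3 the classical chains and Cd74 are at 62.0% to 84.3% of control, H2-DMb1 is at 224% and H2-Ob at 6.36%.

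For the 3 genes of H2-M, the peptide loader, replicate 3 was at 81.0% to 224% of the control mean. H2-DMa, the alpha chain of H2-M, had 21.96, 20.1, 70.1, 13.4 and 8.22 TPM in tumour-bearing lung, against 89.1, 79.0 and 78.1 TPM in control lung. All 5 tumour-bearing values were below the controls, but H2-DMa did not pass (log2 change -1.27, 95% interval -2.57 to 0.04, edgeR adjusted p = 0.0862). H2-DMb1, a beta chain of H2-M, had 41.6, 20.2, 156, 22.8 and 18.3 TPM in tumour-bearing lung, against 78.1, 66.4 and 64.1 TPM in control lung. The groups overlapped, since 4 libraries lay below all controls and replicate 3 above all of them. The log2 change of H2-DMb1 was -0.11 (95% interval -1.57 to 1.35, edgeR adjusted p = 0.894) and -1.03 (SE 0.25, edgeR adjusted p = 0.00795) without replicate 3. With tumour-bearing 2, 4 or 5 left out in its place, the sign turned, to at most 0.12.

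H2-DMb2, the second beta chain gene of H2-M, had 2.78, 3.46, 10.1, 1.27 and 1.07 TPM in tumour-bearing lung, against 9.43, 14.4 and 13.6 TPM in control lung. Only replicate 3 reached into the control range, and H2-DMb2 did not pass (log2 change -1.35, 95% interval -2.78 to 0.09, edgeR adjusted p = 0.0951). H2-DMb1 and H2-DMb2 share long stretches of sequence, and their expected counts had decimals in 13 of 14 libraries each, so reads may have been divided between them and their separate values are uncertain. The counts of both added together gave a log2 change of -0.26 in lung (edgeR adjusted p = 0.746). Relative to H2-DMa in TPM, H2-DMb1 was at 1.01 to 2.23 in tumour-bearing lung and 0.822 to 0.877 in control lung, without overlap. H2-DMb1 per 100 TPM of H2-Ab1 was 25.9 to 47.0 in tumour-bearing lung and 10.1 to 10.7 in control lung, also without overlap. These ratios were chosen after the values were seen and carry no test.

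H2-Ob showed the lowest log2 change of the 10 genes. H2-Ob, the beta chain of H2-O, had 0.78, 0.34, 0.72, 0.15 and 0.06 TPM in tumour-bearing lung, against 8.06, 12.5 and 13.5 TPM in control lung. In counts this was 82, 29, 61, 9 and 4 in tumour-bearing lung, against 541, 770 and 814 in control lung. Every tumour-bearing library was far below every control, replicate 3 included. The log2 change was -4.21 (SE 0.72, 95% interval -5.83 to -2.59, edgeR adjusted p = 0.000926), or 18.5-fold lower, and it stayed past the threshold in all 18 alternatives tried (adjusted p up to 0.00459). H2-Oa, the alpha chain of H2-O, had 0.76, 1.07, 2.90, 0.36 and 0.53 TPM in tumour-bearing lung, against 4.47, 6.55 and 6.69 TPM in control lung. It fell by 1.99 on the log2 scale (SE 0.59, edgeR adjusted p = 0.0168), a call lost without control 2 or 3. The ratio of H2-Ob to H2-Oa was 0.113 to 1.03 in tumour-bearing lung and 1.80 to 2.01 in control lung, again without overlap and without a test.

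Ciita, the coactivator that class II promoters need, had 1.36, 0.59, 2.60, 0.28 and 0.19 TPM in tumour-bearing lung, against 10.0, 5.18 and 5.52 TPM in control lung. The groups did not overlap. Tumour-bearing libraries 4 and 5, which had the lowest Ciita, also had the lowest H2-Ab1, H2-Eb1, H2-DMa, H2-DMb2, H2-Oa and H2-Ob. For Cd74, H2-Aa and H2-DMb1 the lowest were libraries 2 and 5. A link between Ciita and these genes was not tested. Ciita fell by 2.29 on the log2 scale (SE 0.71, 95% interval -3.91 to -0.68, edgeR adjusted p = 0.0206), a call lost only without control 1 among the 18 alternatives. Control 1 had the highest Ciita of the controls, at 2032 counts beside 1105 and 1068, and the lowest H2-Ob. Ciita per 100 TPM of H2-Ab1 was 0.478 to 0.912 in tumour-bearing lung and 0.791 to 1.38 in control lung, which overlapped.

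**Figure D3:**
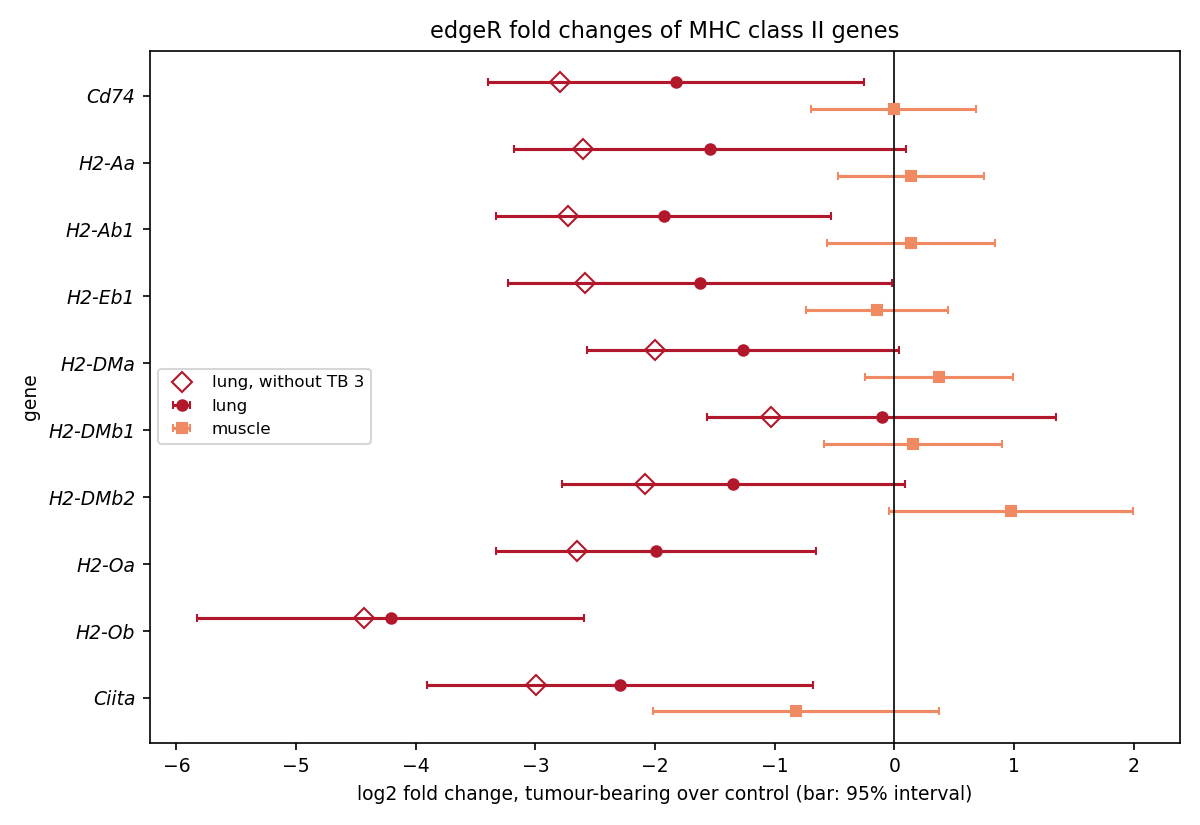
Log2 change of each of the 10 genes (tumour-bearing over control) by edgeR, in lung (circles) and muscle (squares), with 95% intervals. Open diamonds give the lung value without tumour-bearing replicate 3, which is lower than the lung circle for all 10 genes, and H2-Oa and H2-Ob have no muscle value because they were filtered out.

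In muscle, class II transcripts were low and no gene passed. In edgeR (n = 3 and 3) and limma-voom none of the 8 genes tested rose or fell, nor did any of the 9 with an adjusted p in DESeq2. At an unadjusted p below 0.05 the count was 0 in each of these 3 fits. Of all 14373 genes tested in muscle, 8.53% were higher and 6.75% lower, 15.3% in all. The median log2 change of the 8 was 0.14, beside -0.03 for all genes tested. Upper-quartile scaling moved the median of all genes to -0.25 and that of the 8 to -0.07.

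Cd74 had 29.9, 31.0 and 31.0 TPM in tumour-bearing muscle, against 39.1, 31.8 and 19.4 TPM in control muscle. Its tumour-bearing values lay inside the range of the controls. The log2 change was -0.01 (95% interval -0.70 to 0.68, edgeR adjusted p = 0.989). H2-Aa had 19.6, 21.1 and 17.8 TPM in tumour-bearing muscle, against 24.0, 16.1 and 12.0 TPM in control muscle, with a 95% interval of -0.47 to 0.75. H2-Ab1 had 48.9, 59.8 and 59.2 TPM in tumour-bearing muscle, against 57.5, 46.5 and 42.8 TPM in control muscle, with a 95% interval of -0.57 to 0.84. For both I-A chains the groups overlapped. H2-Eb1 had 7.51, 6.27 and 4.43 TPM in tumour-bearing muscle, against 8.76, 6.69 and 3.62 TPM in control muscle (95% interval -0.74 to 0.44).

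The loading genes of muscle were at a few TPM or less. H2-DMa had 4.57, 3.83 and 2.12 TPM in tumour-bearing muscle, against 3.6, 2.2 and 1.78 TPM in control muscle (log2 change 0.37, edgeR adjusted p = 0.347). H2-DMb1 had 1.78 to 3.20 TPM in tumour-bearing muscle and 1.42 to 2.24 TPM in control muscle. Both overlapped between the groups. H2-DMb2 rested on 26.33, 25.5 and 13.55 expected counts in tumour-bearing muscle, against 14.1, 8.14 and 9 expected counts in control muscle, and had the highest log2 change of the 8, 0.97 (95% interval -0.04 to 1.99, edgeR adjusted p = 0.155). Ciita had 7, 11 and 8 counts in tumour-bearing muscle, against 24, 10 and 12 counts in control muscle (log2 change -0.82, 95% interval -2.02 to 0.37, edgeR adjusted p = 0.287).

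H2-Oa and H2-Ob did not pass the count filter in muscle. H2-Oa had 0 counts in each tumour-bearing library, against 4, 1 and 1 counts in control muscle, and H2-Ob had 0, 6 and 0 counts, against 6, 8 and 10 counts. A count of 0 allows up to 3 counts, or 0.0679 to 0.0924 CPM (counts scaled to library size) in a muscle library of this depth. In the fits that kept these genes neither passed. Without a filter the adjusted p of edgeR was 0.149 for H2-Ob and 0.163 for H2-Oa, both with an unadjusted p below 0.05. With all 14 libraries in 1 fit it was 0.210 for H2-Ob and 0.0780 for H2-Oa, and DESeq2 gave 0.246 for H2-Ob. Such floors cover counting error only.

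By group mean, control lung was highest and tumour-bearing lung next for all 10 genes. In 8 genes these ranges lay apart, and in H2-DMb1 and H2-DMb2 they overlapped. Tumour-bearing lung lay above both muscle groups without overlap for all of the 10 genes but H2-Ab1 and H2-Ob. The share of all genes for which this holds was not determined. H2-Ab1 was at 58.6 TPM in tumour-bearing lung 4, inside the muscle range of 42.8 to 59.8 TPM, and at 38.9 TPM in tumour-bearing lung 5, below every muscle library. H2-Ob was at 0.06 TPM in tumour-bearing lung 5, against up to 0.10 TPM in both muscle groups. The muscle groups overlapped each other for every gene of the 10 but H2-Oa, which differed by 6 counts in all. Of all genes tested in muscle, 13.3% lay wholly below the controls in TPM and 12.2% wholly above. Within muscle the proportions of the chains were not those of lung. H2-Aa over H2-Ab1 was 0.301 to 0.400 in tumour-bearing muscle and 0.280 to 0.417 in control muscle, and Cd74 over the 3 chains was 0.356 to 0.393 in tumour-bearing muscle and 0.332 to 0.459 in control muscle, all below every lung library.

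Whether the tumour difference was not the same in lung and in muscle was tested as an interaction in 1 fit of all 14 libraries. None of the 10 genes passed in edgeR, where 19.0% of 19834 genes were lower and 16.6% higher (35.6% in all), while 3 had an unadjusted p below 0.05, all lower in lung. DESeq2 and limma-voom each gave 2 of 10 lower, where 4149 of 22541 genes were lower in DESeq2 and 4362 of 19834 in limma-voom. H2-DMb2 was nearest, with a difference of -2.32 (95% interval -4.24 to -0.41, edgeR adjusted p = 0.0567), followed by H2-Ab1 at -2.05 (95% interval -3.76 to -0.34, edgeR adjusted p = 0.0592). H2-DMa was at -1.63 (edgeR adjusted p = 0.104) and Cd74 at -1.80 (edgeR adjusted p = 0.128). Without tumour-bearing lung 3, 7 of 10 were lower in lung (Cd74, H2-Aa, H2-Ab1, H2-Eb1, H2-DMa, H2-DMb1 and H2-DMb2), with 19.0% of all genes tested lower in that fit. The fitted difference of H2-Oa depends on muscle libraries at 0 counts, and its sign turned on log2(TPM + 1), so it gives no direction.

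**Figure D4:**
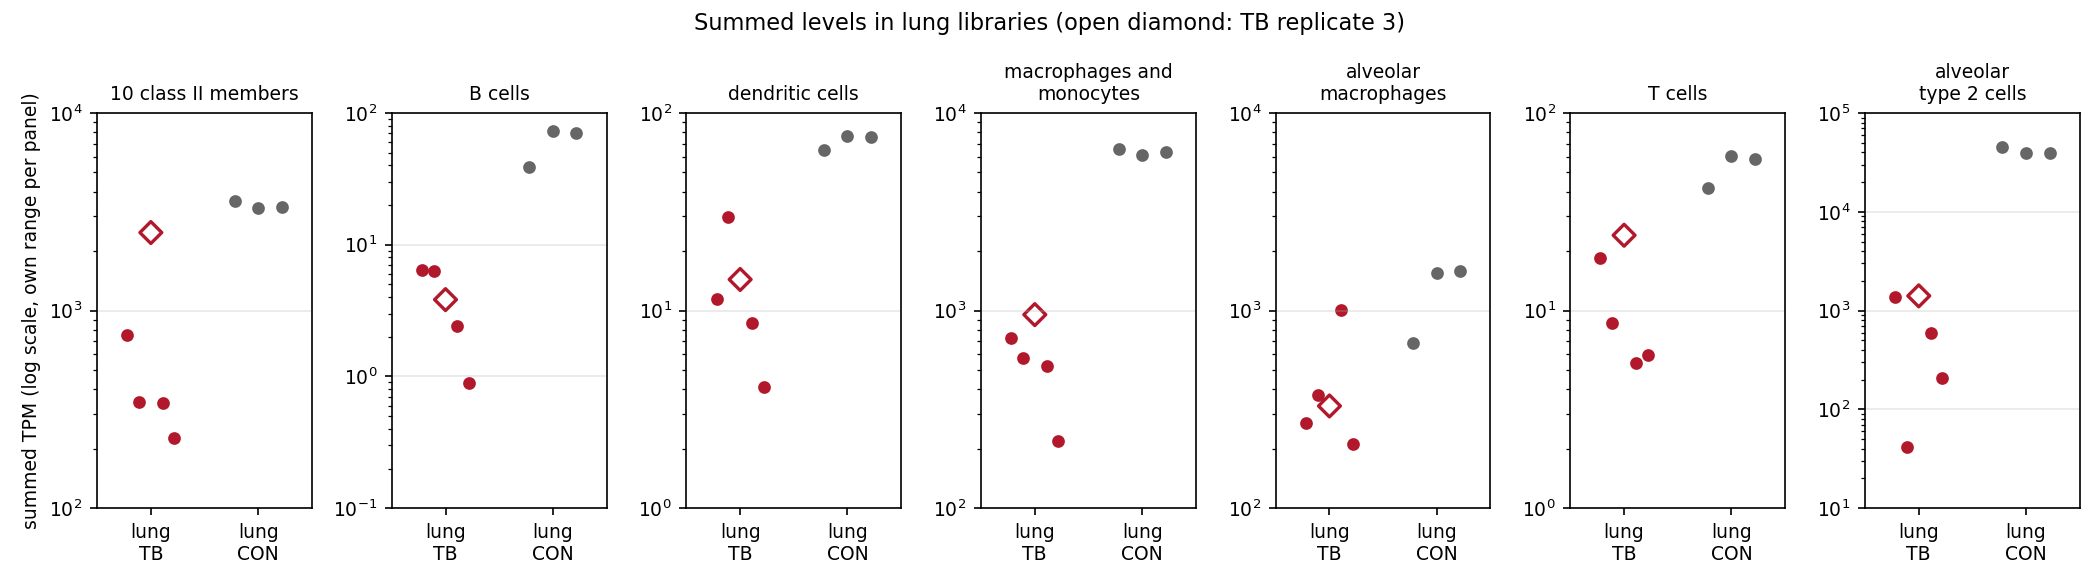
Summed TPM of the 10 class II genes and of 6 lists of cell type markers in each lung library, on log axes with their own range. The open diamond is tumour-bearing replicate 3, whose class II sum of 2483 TPM is the highest of the 5. It is also the highest of the 5 for macrophages and monocytes, T cells and alveolar type 2 cells. For B cells (3.83 TPM), dendritic cells and alveolar macrophages it lies among the other tumour-bearing libraries.

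B cell, dendritic cell and alveolar type 2 markers were lower in tumour-bearing lung, while those of macrophages were divided. All 8 B cell markers fell, and 7 of 8 without replicate 3. Cd79a, of the B cell receptor, averaged 0.814 ± 0.586 TPM in tumour-bearing and 19.8 ± 7.85 TPM in control lung (SD, n = 5 and 3), and Ms4a1, which encodes CD20, had a log2 change of -5.23 (edgeR adjusted p = 0.000735). Their summed level was 0.89 to 6.39 TPM in tumour-bearing lung and 38.7 to 73.1 TPM in control lung. Control 1, lowest of the controls in H2-Ob, was also lowest in this sum, and in the dendritic cell, T cell and alveolar macrophage sums. It was highest of the controls for macrophages and monocytes and for alveolar type 2 cells. Tumour-bearing 3, highest in class II, was in the middle of its group for B cells, at 3.83 TPM. Its sums for macrophages and monocytes (954 TPM), T cells (24.1 TPM) and alveolar type 2 cells (1409 TPM) were the highest of the 5. Those for dendritic cells and alveolar macrophages were not. For type 2 cells tumour-bearing 1 was close, at 1379 TPM, though its class II sum was 753 TPM beside 2483 TPM in replicate 3. Of 9 dendritic cell markers 7 fell, and none rose. Zbtb46, a factor of classical dendritic cells, averaged 1.58 ± 0.374 TPM in tumour-bearing and 12.2 ± 0.192 TPM in control lung (SD, n = 5 and 3; log2 change -2.85, edgeR adjusted p = 8.15e-06), and Clec9a, a receptor of a cross-presenting subset, also fell (-4.81, edgeR adjusted p = 0.000359). The sum of that list was 4.09 to 29.6 TPM in tumour-bearing lung and 65.0 to 76.1 TPM in control lung.

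Macrophage and monocyte markers split, with 4 of 10 lower, 1 higher (Mrc1, the mannose receptor) and 5 not past. Lyz2, lysozyme, which alveolar type 2 cells also express, and Csf1r, the receptor that macrophages need for survival, both fell (log2 change -3.95 and -1.17, edgeR adjusted p = 0.000296 and 0.000647). C1qa, a complement gene of tissue macrophages, had 75.7, 125, 152, 72.4 and 34.8 TPM in tumour-bearing lung, against 67.7, 68.5 and 63.5 TPM in control lung, and was highest in replicate 3. Its list summed to 218 to 954 TPM in tumour-bearing lung and 6101 to 6553 TPM in control lung, and Lyz2 alone averaged 293 ± 184 TPM in tumour-bearing lung and 6044 ± 232 TPM in control lung (SD, n = 5 and 3). C1qa did not pass (log2 change 0.89, edgeR adjusted p = 0.0702). Of 7 alveolar macrophage markers 3 fell, among them Car4 and Ear2 (log2 change -4.57 and -2.05), and 4 did not pass. The sums of that list overlapped, at 212 to 1004 TPM in tumour-bearing lung and 683 to 1584 TPM in control lung. All 8 alveolar type 2 markers fell, with sums of 42.0 to 1409 TPM in tumour-bearing lung and 39340 to 45543 TPM in control lung. Abca3, a lipid transporter of lamellar bodies, and Etv5, a transcription factor of these cells, had the smallest p of that list (log2 change -1.73 and -3.06, edgeR adjusted p = 2.44e-05 and 3.06e-05). The part of any of these cell types in the class II difference was not tested.

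Other lists differed too. Endothelial markers fell in 6 of 6 (Pecam1, log2 change -4.31, and Cdh5, -4.28), and erythroid markers in 5 of 5 (Alas2, -3.34, and Hbb-bt, -3.25). Of 8 T cell markers 3 fell (among them Cd5, -2.21, and Cd2, -3.69), and 5 fell without replicate 3, with sums of 5.45 to 24.1 TPM in tumour-bearing lung and 41.9 to 60.7 TPM in control lung. No B cell, dendritic cell, macrophage, T cell or type 2 cell marker was at 0 in every library of either lung group. Among 6 genes of leukocytes at large 3 fell, with Ptprc, the leukocyte antigen CD45, at -2.70 and Laptm5 at -1.57. Of 5 neutrophil markers Cxcr2 rose by 3.12 and 2 fell, among them Csf3r (-1.33). Of 5 muscle markers tested in lung 4 fell, with Ckm at -6.20 and Mb at -4.58, and Mylpf rose. These other lists were not set against the class II genes, and their part in the result was not tested.

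In muscle, where 15.3% of all genes were called and no class II gene passed, markers of several cell types did. Some of these calls rested on low levels. In tumour-bearing and control muscle, Cd79b averaged 0.0933 and 0.53 TPM and Siglech 0.02 and 0.427 TPM. In the same order, Cx3cr1 averaged 0.0133 and 0.0933 TPM and Cd3e 0.02 and 0.463 TPM. Only 1 of 8 B cell markers was tested, Cd79b, and it fell (log2 change -2.71, edgeR adjusted p = 0.0211). Siglech, a gene of plasmacytoid dendritic cells, fell (-4.57, edgeR adjusted p = 0.0195), as the only call among 6 dendritic cell markers tested, next to Zbtb46 at -0.91 (edgeR adjusted p = 0.0899). Of 10 macrophage and monocyte markers Cd68 rose (2.60, edgeR adjusted p = 0.0495) and Cx3cr1 fell (-3.15, edgeR adjusted p = 0.0267). Cd68 averaged 12.2 ± 14.4 TPM in tumour-bearing and 1.88 ± 0.623 TPM in control muscle (SD), and limma-voom called no marker of that list higher. Of 5 alveolar macrophage markers tested 3 rose, among them Ear2 (3.79) and Chil3 (6.31). Chil3 averaged 1.80 ± 2.33 TPM in tumour-bearing and 0.0167 ± 0.00577 TPM in control muscle (SD). Siglecf and Marco were not tested, with Siglecf at 0 in both muscle groups and Marco at 0 in control muscle. The neutrophil genes S100a9 and S100a8 were 2 of 3 that rose (2.48 and 2.63), Cd3e of T cells fell (-4.52) while Cd2 did not pass (-0.08), and Kdr was the 1 endothelial gene of 6 that fell (-1.16), beside Tie1 at -0.72, which did not pass. Etv5 and Abca3 of type 2 cells (-0.04 and 0.04), the muscle genes Mb and Tnnt3 (-1.51 and 0.77), the erythroid genes Hbb-bs and Alas2 (3.17 and 3.01) and the leukocyte genes Tyrobp and Cd53 (0.53 and 0.52) did not pass in edgeR, though all 5 erythroid genes had an unadjusted p below 0.05 and 2 rose in DESeq2.

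Among the factors that bind the X and Y boxes, 1 fell in lung. Of 7 such genes (Rfx5, Rfxap, Rfxank, Nfya, Nfyb, Nfyc and Creb1), Creb1 fell in lung (log2 change -0.72, SE 0.17, edgeR adjusted p = 0.00503), Nfyb was at 0.40 (edgeR adjusted p = 0.105), and the median of the list was 0.10. Rfx5, a subunit of the complex on the X box, had 5.85, 2.64, 5.96, 4.96 and 3.19 TPM in tumour-bearing lung, against 8.15, 6.75 and 7.50 TPM in control lung. All 5 TPM values were below the controls, but the count test did not pass (log2 change -0.22, edgeR adjusted p = 0.510). In muscle none of the 7 passed in edgeR, DESeq2 or limma-voom, with Creb1 at -0.73 and Nfya at -0.57 in edgeR, and 1 had an unadjusted p below 0.05 in edgeR, 0 in DESeq2 and 1 in limma-voom.

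Interferon gamma is the classical inducer of Ciita. Of 8 genes of its signalling, Jak2, a receptor-bound kinase, rose in lung (log2 change 0.77, edgeR adjusted p = 0.0135), Jak1, its partner, fell (-0.66, edgeR adjusted p = 0.0175), and 6 did not pass. Ifng itself had 0.25, 0, 0.56, 0.02 and 0.26 TPM in tumour-bearing lung, against 1.31, 0.95 and 0.55 TPM in control lung. Ifng did not pass (log2 change -1.84, edgeR adjusted p = 0.118), and its part in the level of Ciita was not tested. In muscle 0 of 7 tested passed in edgeR and in limma-voom, with 1 at an unadjusted p below 0.05 in each, and 1 was lower in DESeq2. Ifngr1 was at 0.42 in muscle (edgeR adjusted p = 0.261).

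None of the genes that process antigen and the invariant chain fell in lung. Of 7, Ctsd and Ctsl, the lysosomal proteases cathepsin D and cathepsin L, rose (log2 change 1.17 and 1.55, edgeR adjusted p = 0.00321 and 0.00440) and 5 did not pass. Ctss, the protease that trims the invariant chain in antigen-presenting cells, had 128, 120, 258, 126 and 41.8 TPM in tumour-bearing lung, against 140, 186 and 183 TPM in control lung, again highest in replicate 3, and did not pass (log2 change 0.08, edgeR adjusted p = 0.882). Without replicate 3, 1 gene of this list fell. In muscle Ifi30, a thiol reductase that unfolds antigen, and Ctsl rose (2.72 and 2.61, edgeR adjusted p = 0.00951 and 0.0233), while Cd74 did not pass. Ctsl in muscle had 579.5 TPM in tumour-bearing 1, beside 35.1 and 46.4 TPM in the other 2, so its tumour-bearing mean of 220 TPM came mostly from library 1. Control muscle averaged 15.2 ± 7.50 TPM (SD).

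Of 7 genes of class II surface traffic and co-stimulation, 4 fell in lung and none rose. Cd83, which keeps class II at the surface of activated cells, had 1.38, 0.26, 1.06, 0.39 and 0.33 TPM in tumour-bearing lung, against 8.14, 8.85 and 10.1 TPM in control lung (log2 change -3.33, SE 0.52, edgeR adjusted p = 0.000571). Icosl, a ligand for a T cell co-stimulator, also fell (-1.64, edgeR adjusted p = 0.00875), as did Cd86 and Marchf1, a ubiquitin ligase that removes class II from the surface. In muscle Cd83 and Cd80, a ligand of CD28, fell, at levels below 1 TPM in every library (log2 change -2.99 and -1.75, edgeR adjusted p = 0.0105 and 0.0392). The groups did not overlap for Cd83 in either tissue.

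The genes whose pattern was nearest to the mean of Cd74, H2-Aa, H2-Ab1 and H2-Eb1 were ranked by the root mean square difference of centred log2 CPM, over 13533 genes with a mean of at least 1 CPM. Over all 14 libraries the 5 nearest were Samhd1, Cd86, Cd48, Xdh and Sash1, at 0.536 to 0.587, where the median gene was at 1.6. The high likeness of a gene is a description over libraries that share the same tissue contrast. Cd86 is a co-stimulatory ligand of antigen-presenting cells and Samhd1 an enzyme that lowers nucleotide pools. Xdh, xanthine dehydrogenase, had 38.7, 33.4, 137.43, 24.2 and 21.1 TPM in tumour-bearing lung, against 156, 122 and 112 TPM in control lung. Its highest tumour-bearing value was in replicate 3, which a ranking by likeness to these class II genes favours. Over the 8 lung libraries alone the nearest were Fam189a2, Zap70, Mturn, Dnajc12 and Capn3, at 0.397 to 0.431. Capn3 passed the filter on mean CPM through muscle (24.4 to 98.2 TPM) and was at 0.04 to 1.32 TPM in the lung libraries, so its place rests on low values. Among the genes not in that mean, H2-DMa was at 0.394 over 14 libraries and H2-DMb2 at 0.608, while H2-DMb1 was at 0.866, Ciita at 0.830, H2-Oa at 1.34 and H2-Ob at 1.56. Over the 8 lung libraries H2-DMa was at 0.419, Ciita at 0.448, H2-DMb2 at 0.538, H2-Oa at 0.568, H2-DMb1 at 0.857 and H2-Ob at 1.28.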

How the data were processed

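RNA was sequenced from lung and gastrocnemius muscle in 14 libraries (directional kit, per the labels' protocols). Per the submitters' processing notes, reads were trimmed with Trim Galore and quantified with STAR 2.7.9a and RSEM 1.3.3. The authors deposited expected counts and TPM per gene for each library. Genome build and strand setting: not given in the sources used here. Symbols were matched to gene IDs for 52083 of 55416 rows.

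Expected counts were rounded to whole numbers and tested per tissue with edgeR 4.0.16 (R 4.3.3; TMM scaling, filterByExpr, quasi-likelihood test, Benjamini-Hochberg threshold 0.05). A fit of all 14 libraries tested lung effect minus muscle effect. Standard errors are the log2 change over the root of F, with 95% intervals from the t distribution. Simulated data with known changes were used to test the fits. Alternatives were DESeq2 1.42.0, limma 3.58.1 (voom, and log2 TPM with pseudocounts 1 and 0.1), RLE and upper-quartile scaling, other filters, all libraries in 1 fit, a replicate block, and leaving out each library. An adjusted p that DESeq2 left undefined was kept undefined. The sum of H2-DMb1 and H2-DMb2, and the list counts without tumour-bearing lung 3, were chosen after seeing the data.

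The genes and lists were chosen with earlier results of these data known. The genes named from each list are the 2 with the smallest unadjusted p in that tissue; further list genes were picked with their values in view. By name, 1 list gene is not reported here. The nearest genes are those with the smallest root mean square difference (prior count 2). Replicate pairs within a group differed by more than sampling noise. Floors are 3 counts.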

Additional observations from a re-analysis of the deposited data

Results flagged for a closer look

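Among the 5 tumour-bearing lung libraries, replicate 3 stood apart as the highest in 7 of the 10 genes, by Dixon's test on TPM at the 95% level. Its values there were 1080.29 TPM for Cd74, 498.45 TPM for H2-Aa, 248.65 TPM for H2-Eb1, 70.07 TPM for H2-DMa, 155.61 TPM for H2-DMb1, 10.11 TPM for H2-DMb2 and 2.9 TPM for H2-Oa. In H2-Ab1 and Ciita it was also the highest, but its gap to the next library was within the critical value, and in H2-Ob tumour-bearing 1 was higher. Chance alone would mark about 1 group in 20 only if TPM were normally distributed, which was not tested. The test was not repeated on the log scale used for the fold changes, so the 7 flags hold for TPM only. These genes share their libraries, so the 7 are not separate observations.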

How the results depend on the processing

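The number of class II genes lower in lung was 5 under RLE and upper-quartile scaling, both other filters and the replicate block. It was 3 in DESeq2, which left 5 genes without a p-value, and 9 in limma-voom, in limma on log2(TPM + 1), on log2(TPM + 0.1) and with all 14 libraries in 1 fit. Leaving out 1 library gave 2 to 10. Lower members of the interaction numbered 2 in DESeq2, 2 in limma-voom, 9 on either TPM scale, 2 with the replicate block and 0 to 7 with 1 library left out. In each case the cause was not tested.

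Among all genes in lung, 5862 were higher and 5651 lower, against 3594 and 7994 on log2(TPM + 1) and 3782 and 7908 on log2(TPM + 0.1). In muscle 1226 were higher, against 760 with upper-quartile scaling (1079 lower), 2253 without a filter, 2114 in DESeq2, 157 and 273 on the TPM scales, 1881 in 1 fit and 33 to 2447 with 1 library left out. Lower there were 970, against 1778 without a filter, 1470 in DESeq2, 258 and 403 on the TPM scales, 1578 in 1 fit, 1676 with the replicate block and 73 to 2066 with 1 library left out. Interaction calls were lower in 3770 genes, against 6624 and 6053 on the TPM scales.

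Signs turned for a few log2 changes, and of the values given next only those of H2-DMb1 at -1.03 and -1.21 and those of H2-Oa on the TPM scales passed. H2-DMb1 in lung ran from -1.03 to 0.12 with 1 library left out. In muscle Cd74 was at 0.021 under RLE, 0.022 without a filter, 0.036 in DESeq2, 0.079 and 0.083 on the TPM scales and -0.33 to 0.21 with 1 library left out. With upper-quartile scaling H2-Aa was at -0.071, H2-Ab1 at -0.073 and H2-DMb1 at -0.053, and with 1 library left out H2-Aa ran from -0.074 to 0.31 and H2-Ab1 from -0.18 to 0.38. In the interaction with 1 library left out, H2-DMb1 ran from -1.21 to 0.0072 and H2-Ob from -2.79 to 3.47. H2-Oa there was at -0.055 in limma-voom, -1.73 on log2(TPM + 1) and -2.09 on log2(TPM + 0.1).

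The replicate numbers were not taken as pairs, because no label ties them to an animal or batch. Same-numbered libraries did not all deviate together (correlations 0.039, 0.063 and -0.001 in lung, 0.347, -0.047 and 0.347 in muscle). In muscle, tumour-bearing 1 with control 3 was at -0.338 and tumour-bearing 3 with control 1 at -0.385, so replicates 1 and 3 differed alike in both groups. With the replicate block none of the class II genes passed in muscle. Depth limits H2-Oa, H2-Ob and Ciita in muscle, at 24 counts or fewer.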
